A study of Mus musculus with 21 samples.

Results

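The comparison covers ruxo-wash and DMSO-wash cells of the ruxolitinib washout experiment, 6 of the 21 RNA-seq libraries in the series, chosen by their column names in the one table that holds both groups. All 13085 genes of that table were analysed. The cells belonged to the Ba/F3 line, mouse pro-B cells that normally depend on interleukin-3, stably expressing JAK2-V617F, the mutant kinase of myeloproliferative neoplasms. Ruxo-wash cells received 1 μM ruxolitinib for 1 h, were washed in PBS 3 times and were kept without inhibitor for 6 h, and DMSO-wash cells went through the same steps with solvent alone. Each group has 3 libraries, and both groups carry the same JAK2-V617F construct in one cell line. The labels do not say whether the 3 libraries of a group came from separate cultures, so the p-values below measure the spread between these libraries, which may be technical. The question of the comparison was whether genes driven by JAK2 and STAT5 stand above their usual level once ruxolitinib has left the kinase.

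JAK2 is a tyrosine kinase bound to cytokine receptors such as those for erythropoietin, thrombopoietin and interleukin-3, and its V617F form signals without a cytokine. Active JAK2 phosphorylates STAT5, which moves to the nucleus, binds elements of the form TTCNNNGAA and raises genes for survival kinases, cell cycle proteins and feedback inhibitors. Ruxolitinib is a type I inhibitor, which occupies the ATP site of the active kinase conformation. The study reports raised phosphorylation of the activation loop under it, and proposes that the loop is then shielded from phosphatases. CHZ868 is a type II inhibitor that holds the inactive conformation.

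The deposited values are log2 CPM, reads of a gene scaled to a fixed library total and put on a log2 scale, after normalization by the authors. The depth is unknown, because the low values do not step as whole reads would. Libraries of one group differed from each other with a robust SD of 0.157 to 0.167 on the log2 scale over the 9214 genes with a mean of at least 3, and libraries of different groups with 0.167 to 0.177. Single libraries stood apart more than the groups did: the first principal component (32.5% of the variance) separated DMSO-wash replicate 2 from the rest, the second (19.4%) ruxo-wash replicate 1 and the third (17.4%) DMSO-wash replicate 3. The plain SD of the log2 difference was 0.365 to 0.394 for pairs with DMSO-wash replicate 2 and 0.290 to 0.327 for all others. Over the same genes the median SD within a group was 0.10 and the median standard error of a fold change was 0.09. The labelled cell type was checked against defining markers. Of 19 B lineage genes listed, 4 are in the table (Cd79a, Cd79b, Ighm and Ptprc), while Pax5, Ebf1, Rag1 and Vpreb1 are among the 15 absent from it. Their summed level was 83.5 to 90.6 CPM in ruxo-wash and 82.3 to 87.0 CPM in DMSO-wash cells. Ptprc, which is also expressed in other blood cells, made up 50.2 to 57.0 CPM in ruxo-wash and 55.2 to 58.1 CPM in DMSO-wash cells. The sums of the myeloid, megakaryocyte and erythroid lists, given below, were higher. The interleukin-3 receptor genes Il3ra and Csf2rb are both in the table. Of 14 T lineage genes 1 is in the table (Lck), at a level of 2.01 to 5.38 CPM. Of 13 mast cell and basophil genes 2 are, Gata2 and Fcer1g, both also expressed in other blood cells, with a summed level of 924 to 965 CPM in ruxo-wash and 905 to 958 CPM in DMSO-wash libraries, while Kit, Cpa3 and Fcer1a are absent from the table.

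After washout the transcriptomes of the 2 groups were close to each other. Spp1, Anxa5 and Hba-a1 fell in ruxo-wash cells, and 0 genes rose past an adjusted p of 0.05. These 3 genes are 0.0229% of the 13085 tested by limma-trend (limma on the log2 values with a mean-variance trend, Benjamini-Hochberg adjustment over all genes). At an unadjusted p under 0.05 the same test gave 444 higher genes (3.39%) and 476 lower genes (3.64%), and the smallest adjusted p among higher genes was 0.0678. The values of all 3 ruxo-wash libraries lay above all 3 DMSO-wash libraries for 825 genes (6.3%) and below them for 862 genes (6.59%). The median log2 fold change over all genes was 0.000165, with 6547 genes above 0 and 6538 below. The calls rest on all 6 libraries: without ruxo-wash replicate 2 the count was 1 (Spp1), and without any other single library it was 0, with 388 to 453 higher and 401 to 475 lower genes at an unadjusted p under 0.05.

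**Figure D1:**
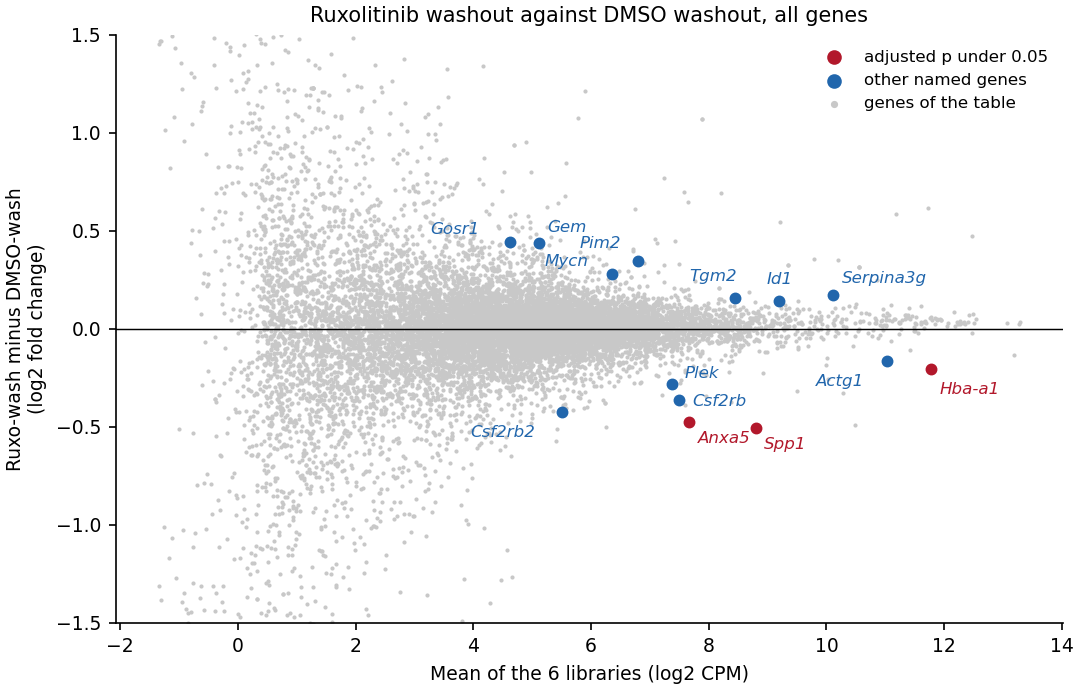
Log2 fold change of ruxo-wash over DMSO-wash cells (vertical axis) against the mean of the 6 libraries in log2 CPM (horizontal axis), one point a gene. Red points are the 3 genes past an adjusted p of 0.05, which all lie below 0, blue points are other genes named in the text, and 445 genes lie beyond the axis limit of 1.5 while 18 genes at the lowest value throughout a group are not drawn.

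Spp1 encodes osteopontin, a secreted phosphoprotein that binds integrins and CD44. Its level was 8.53, 8.60 and 8.52 log2 CPM in ruxo-wash libraries 1 to 3 and 9.05, 9.07 and 9.04 log2 CPM in the DMSO-wash libraries. Every ruxo-wash library lay below every DMSO-wash library, by more than the spread within either group. Spp1 fell by 29.5%, a log2 fold change of -0.50 (95% interval -0.58 to -0.43; limma-trend adjusted p = 0.0217), and the exact two-sided permutation p was 0.1, the smallest that 3 against 3 allow. The gene lies on GRCm38 chr5:104435118-104441050 (plus strand) and shares 309 exon bases on the same strand with the predicted gene Gm42793, so reads from those bases cannot be assigned to one of the pair. The adjusted p of Spp1 ranged from 0.00482 to 0.331 over 18 alternatives of processing, all with the lower level in ruxo-wash cells. Of 7 listed genes for osteopontin and its receptors in the table, 2 were lower at an unadjusted p under 0.05 (Spp1 and Itga5) and 0 higher. All genes gave 3.64% lower and 3.39% higher at that p. Itga5, an integrin subunit, had a log2 fold change of -0.24 (limma-trend adjusted p = 0.586).

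Anxa5 encodes annexin A5, which binds phosphatidylserine on membranes in the presence of calcium. Its level was 7.40, 7.43 and 7.46 log2 CPM in ruxo-wash libraries and 7.92, 7.93 and 7.88 log2 CPM in DMSO-wash libraries. The groups were apart by several times their spread. Anxa5 fell by 28.2% (log2 fold change -0.48, 95% interval -0.56 to -0.40; limma-trend adjusted p = 0.0289; adjusted p 0.00695 to 0.446 over the alternatives). The gene lies on GRCm38 chr3:36448923-36475894 (minus strand), and no near copy of its transcript was found.

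Hba-a1, an alpha globin gene, is expressed at a high level in these cells. Its level was 11.65, 11.68 and 11.70 log2 CPM in ruxo-wash libraries and 11.88, 11.87 and 11.89 log2 CPM in DMSO-wash libraries. The groups did not overlap, and the step between them was small. Hba-a1 fell by 13.4% (log2 fold change -0.21, 95% interval -0.25 to -0.17; limma-trend adjusted p = 0.0367; adjusted p 0.00695 to 0.549 over the alternatives). The gene lies on GRCm38 chr11:32283511-32284465 (plus strand). Its transcript is 99.8% identical to Hba-a2 over 538 bases, so counts of this pair are uncertain, and Hba-a2 had a log2 fold change of -0.29 with overlapping groups (limma-trend unadjusted p = 0.143). In bulk RNA, fewer cells with globin RNA and less globin RNA per cell cannot be told apart.

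**Figure D2:**
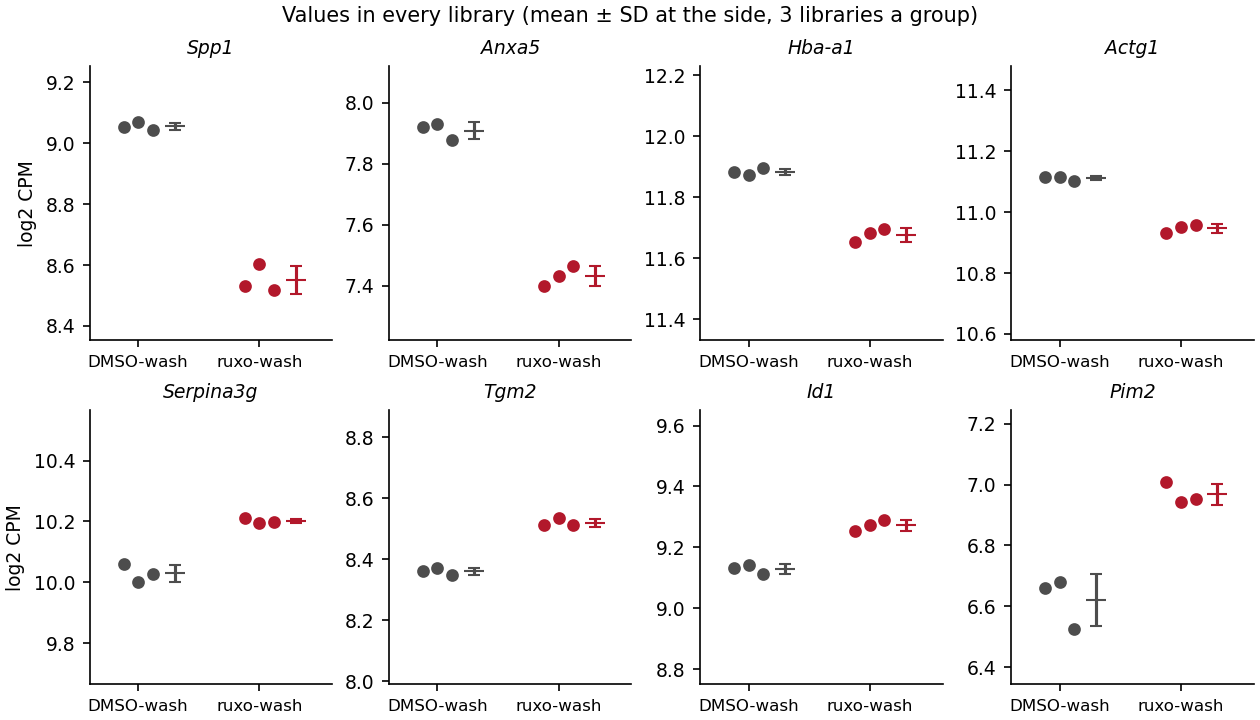
Values of 8 genes in every library, in log2 CPM, with DMSO-wash in grey and ruxo-wash in red, and the mean with its SD at the side of each group (3 libraries a group). The vertical axes span the same range in every panel, and in all 8 genes the groups do not overlap: Spp1, Anxa5, Hba-a1 and Actg1 are lower and Serpina3g, Tgm2, Id1 and Pim2 higher in ruxo-wash cells.

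The STAT5 target genes moved in a mixed way. Of 20 listed, 17 are in the table, and their median log2 fold change was 0.04, against 0.000165 over all genes. Members at an unadjusted p under 0.05 were 5 higher (Pim2, Id1, Bcl2l1, Ccnd3 and Pim1) and 1 lower (Bcl2), none of them past the adjusted threshold. Over all genes 3.39% were higher and 3.64% lower at that p. Of the members, 9 lay above 0 and 8 below. Leaving out single libraries moved the list's median from -0.02 to 0.10.

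Pim2, a serine/threonine kinase that supports survival, had the largest fold change among the members at an unadjusted p under 0.05. Its level was 7.01, 6.94 and 6.95 log2 CPM in ruxo-wash libraries and 6.66, 6.68 and 6.52 log2 CPM in DMSO-wash libraries, with no overlap. The log2 fold change was 0.35 (95% interval 0.22 to 0.47; limma-trend unadjusted p = 0.0005, adjusted p = 0.218). A near copy, Gm21182, is 94.7% identical over 798 bases of its transcript. Its relative Pim1 reached 8.65, 8.71 and 8.69 log2 CPM in ruxo-wash libraries and 8.53, 8.63 and 8.59 log2 CPM in DMSO-wash libraries. The gap between the groups of Pim1 was small, and the fold change was 0.10 on the log2 scale (95% interval 0.01 to 0.18; limma-trend unadjusted p = 0.0292, adjusted p = 0.659).

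Id1 encodes an inhibitor of basic helix-loop-helix factors that lacks a DNA-binding region. It measured 9.25, 9.27 and 9.29 log2 CPM in ruxo-wash libraries and 9.13, 9.14 and 9.11 log2 CPM in DMSO-wash libraries. All ruxo-wash values were above all DMSO-wash values, with a log2 fold change of 0.14 (95% interval 0.09 to 0.19; limma-trend unadjusted p = 0.000437, adjusted p = 0.197). Bcl2l1, which encodes the survival protein BCL-XL, stood at 7.79, 7.72 and 7.76 log2 CPM in ruxo-wash libraries and 7.61, 7.59 and 7.63 log2 CPM in DMSO-wash libraries (limma-trend adjusted p = 0.398). Its relative Bcl2 went the other way, at 4.57, 4.67 and 4.62 log2 CPM in ruxo-wash libraries and 4.89, 4.84 and 4.91 log2 CPM in DMSO-wash libraries (limma-trend adjusted p = 0.445). Neither of these survival genes overlapped between the groups.

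The feedback genes and Myc did not reach an unadjusted p under 0.05. Cish, a STAT5-induced inhibitor of cytokine signalling, was 4.78, 4.79 and 4.78 log2 CPM in ruxo-wash libraries and 4.68, 4.57 and 4.72 log2 CPM in DMSO-wash libraries (log2 fold change 0.13, 95% interval -0.03 to 0.28; limma-trend adjusted p = 0.759), with the ruxo-wash values just above the others. Socs2, a further feedback inhibitor, overlapped between the groups (log2 fold change 0.04, 95% interval -0.20 to 0.28), as did the cytokine gene Osm (-0.02, 95% interval -0.31 to 0.27). Myc, the growth regulator, was 8.56, 8.55 and 8.52 log2 CPM in ruxo-wash libraries and 8.49, 8.61 and 8.60 log2 CPM in DMSO-wash libraries. Its interval, -0.11 to 0.07 on the log2 scale, bounds the difference in Myc RNA at this time.

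The kinases and STAT factors themselves stayed near their DMSO-wash level. Jak2 stood at 8.11, 8.07 and 8.14 log2 CPM in ruxo-wash libraries and 8.15, 8.19 and 8.17 log2 CPM in DMSO-wash libraries (log2 fold change -0.06, 95% interval -0.14 to 0.01; limma-trend adjusted p = 0.727). The study's methods describe a construct of human JAK2. The table gives one value, under the mouse gene, so how much construct RNA enters it cannot be told. Stat5a had a log2 fold change of 0.04 (95% interval -0.16 to 0.24), and Stat5b one of -0.00 (95% interval -0.18 to 0.17). Of the 10 genes of this list in the table, 2 were apart with lower values in ruxo-wash cells (Jak2 and Stat2) and 1 with higher values. Over all genes 6.59% were apart with lower and 6.3% with higher values. The list's median was 0.02, and 0 of the 10 reached even an unadjusted p under 0.05 in limma-trend. Of 19 phosphatases and adaptors that restrain JAK2, 0 were higher and 1 lower at that p, where all genes gave 3.39% higher and 3.64% lower. The member was Pias3, an inhibitor of STAT3, at 3.56, 3.58 and 3.64 log2 CPM in ruxo-wash libraries and 4.05, 4.06 and 3.95 log2 CPM in DMSO-wash libraries (limma-trend adjusted p = 0.362).

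**Figure D3:**
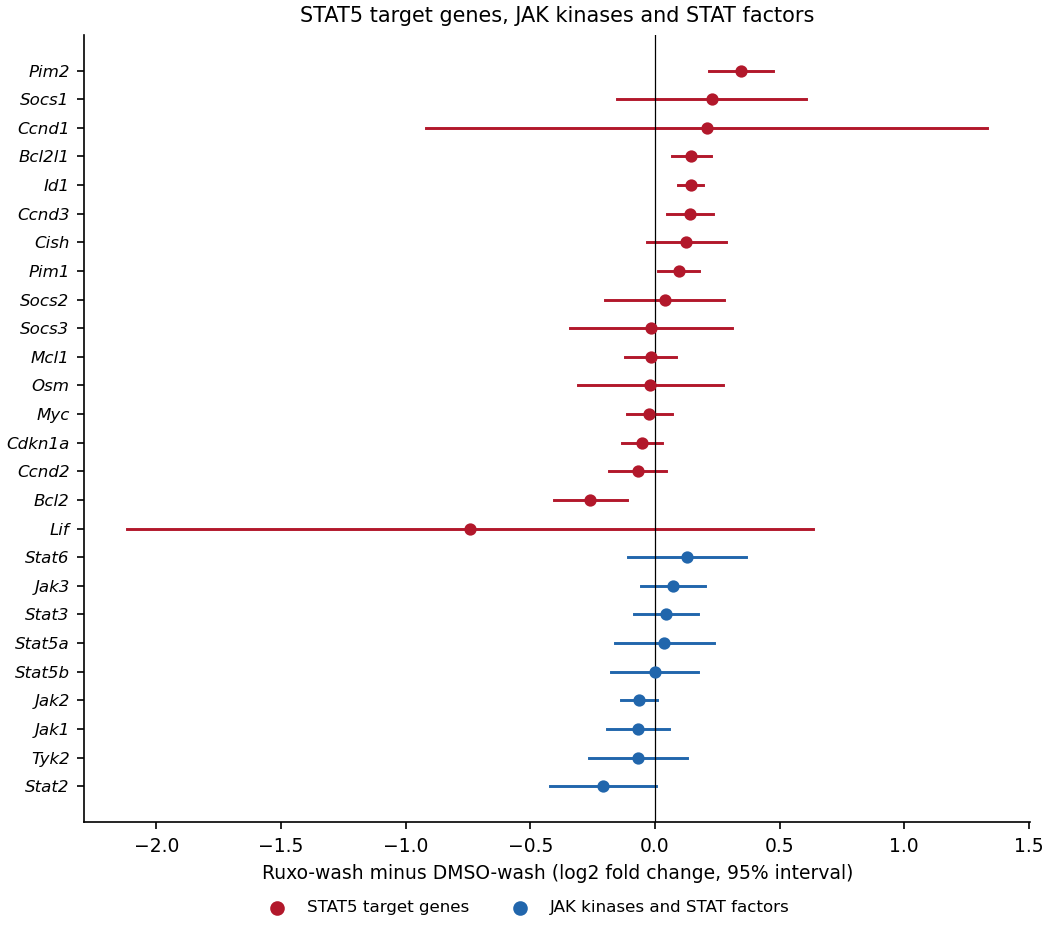
Log2 fold change of ruxo-wash over DMSO-wash cells with its 95% interval for STAT5 target genes (red) and JAK kinases and STAT factors (blue). Pim2, Bcl2l1, Id1, Ccnd3 and Pim1 have intervals above 0 and Bcl2 one below 0, while the intervals of the JAK and STAT genes drawn all include 0.

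Serpina3g, an intracellular serine protease inhibitor, was higher in all 3 ruxo-wash libraries. It measured 10.21, 10.20 and 10.20 log2 CPM in ruxo-wash libraries and 10.06, 10.00 and 10.03 log2 CPM in DMSO-wash libraries (log2 fold change 0.17, 95% interval 0.12 to 0.22; limma-trend unadjusted p = 0.00012, adjusted p = 0.108). Its transcript is 92.1% identical to Serpina3h over 1024 bases. Tgm2, a transglutaminase that crosslinks proteins, was 8.51, 8.53 and 8.51 log2 CPM in ruxo-wash libraries and 8.36, 8.37 and 8.35 log2 CPM in DMSO-wash libraries. Its groups were apart, with a log2 fold change of 0.16 (95% interval 0.10 to 0.22; limma-trend adjusted p = 0.175), and it shares 633 exon bases on the opposite strand with Gm20412. Of 12 listed serpins and transglutaminases in the table, 3 were higher at an unadjusted p under 0.05 (with Serpina3f) and 0 lower. All genes gave 3.39% higher and 3.64% lower. The list's median was 0.03, but its mean level was lower in ruxo-wash cells (3.72 against 3.86 log2 CPM), so the median and the mean differ in sign. The list means of single libraries overlapped between the groups. The lowest fold changes were those of Serpina3i (-0.85) and Serpinb1a (-0.84), both at low levels with overlapping groups.

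Other genes with a small p among those higher in ruxo-wash cells had varied roles. Gem, a small GTPase that binds calcium channel subunits, was 5.39, 5.31 and 5.31 log2 CPM in ruxo-wash libraries and 4.93, 4.92 and 4.85 log2 CPM in DMSO-wash libraries (limma-trend adjusted p = 0.129). Gosr1, a Golgi SNARE protein, was 4.91, 4.83 and 4.77 log2 CPM in ruxo-wash libraries and 4.42, 4.43 and 4.34 log2 CPM in DMSO-wash libraries (limma-trend adjusted p = 0.234). Mycn, a relative of Myc, was 6.49, 6.45 and 6.52 log2 CPM in ruxo-wash libraries and 6.15, 6.26 and 6.22 log2 CPM in DMSO-wash libraries (limma-trend adjusted p = 0.293). The groups of all 3 genes were apart and none passed the adjusted threshold. The log2 fold changes were 0.44, 0.44 and 0.28 for Gem, Gosr1 and Mycn.

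Genes for glycolysis and the hypoxia response formed the list with the highest median log2 fold change apart from the marker lists. HIF factors drive many of these genes, which encode glucose transporters and the enzymes from glucose to lactate. Of 25 in the table (28 listed), 13 were higher at an unadjusted p under 0.05 and 0 lower, beside 3.39% and 3.64% of all genes. In 15 the ruxo-wash libraries all lay above the DMSO-wash libraries and in 0 below, beside 6.3% and 6.59% of all genes. Above 0 lay 23 members. The median was 0.10 (0.10 after a correction for transcript length and GC content), and none of the members passed the adjusted threshold. The mean level of the list was 7.47, 7.49 and 7.47 log2 CPM in ruxo-wash libraries and 7.33, 7.35 and 7.38 log2 CPM in DMSO-wash libraries, without overlap. Leaving out single libraries gave 11 to 14 higher members.

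Tpi1, a glycolytic isomerase, had the smallest p of the list. It was 9.38, 9.34 and 9.36 log2 CPM in ruxo-wash libraries and 9.23, 9.25 and 9.22 log2 CPM in DMSO-wash libraries (log2 fold change 0.12; limma-trend adjusted p = 0.303). The glucose transporter genes were apart too: Slc2a1 was 6.33, 6.36 and 6.32 log2 CPM in ruxo-wash libraries and 6.17, 6.13 and 6.18 log2 CPM in DMSO-wash libraries, and Slc2a3 had a log2 fold change of 0.16. Bnip3, a mitophagy receptor, was 7.92, 7.81 and 7.93 log2 CPM in ruxo-wash libraries and 7.59, 7.64 and 7.70 log2 CPM in DMSO-wash libraries. The fold changes of most enzymes were small, at 0.08 for Ldha (lactate dehydrogenase) and 0.09 for Pgk1 on the log2 scale, and Hif1a itself had overlapping groups (-0.03). Car9, a carbonic anhydrase, had the largest fold change (0.79, 95% interval 0.12 to 1.46) at a low level, 3.56, 3.76 and 3.43 log2 CPM in ruxo-wash libraries and 2.17, 3.19 and 3.03 log2 CPM in DMSO-wash libraries, and without DMSO-wash replicate 1 its fold change was 0.48. Ldha and Pgk1 have near-identical pseudogene copies, which makes their counts uncertain.

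Genes for actin and its binding proteins were mostly lower in ruxo-wash cells. Of 34 in the table (36 listed), 12 were lower at an unadjusted p under 0.05 and 3 higher, beside 3.64% and 3.39% of all genes. Apart were 14 with the lower values in ruxo-wash cells and 3 with the higher, beside 6.59% and 6.3% of all genes. The median log2 fold change was -0.07. Actg1, cytoplasmic gamma actin, came closest to the adjusted threshold, at 10.93, 10.95 and 10.96 log2 CPM in ruxo-wash libraries and 11.11, 11.12 and 11.10 log2 CPM in DMSO-wash libraries. Its log2 fold change was -0.16 (95% interval -0.20 to -0.13; limma-trend adjusted p = 0.0678), and it has 13 near copies, the longest match being Gm8543 at 95.6% identity over 1130 bases. The adjusted p of Actg1 ranged from 0.0148 to 0.677 over the alternatives and passed the threshold in 3 of them.

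Further members of the list went the same way, with exceptions. Flna (filamin A, an actin crosslinker) had values of 7.39, 7.39 and 7.41 log2 CPM in ruxo-wash libraries and 7.64, 7.64 and 7.70 log2 CPM in DMSO-wash libraries, a log2 fold change of -0.26. Tagln2, a transgelin, was 9.94, 9.95 and 9.92 log2 CPM in ruxo-wash libraries and 10.08, 10.10 and 10.08 log2 CPM in DMSO-wash libraries (limma-trend adjusted p = 0.108). Myh9 (non-muscle myosin), Actb (beta actin), Msn (moesin) and Lcp1 (L-plastin) lay at -0.14, -0.11, -0.14 and -0.17. The 3 higher members were Pfn1 (profilin), Tmsb4x (thymosin beta 4) and Actn4 (alpha actinin 4), at 0.06, 0.04 and 0.11. Quantile normalization left 0 higher members at an unadjusted p under 0.05 in limma-trend and 13 lower, and leaving out single libraries gave 0 to 2 higher and 7 to 10 lower members, the fewest lower without ruxo-wash replicate 2 (7). Plek (pleckstrin, a phosphoprotein of blood cells) was also lower, at 7.25, 7.23 and 7.23 log2 CPM in ruxo-wash libraries and 7.51, 7.50 and 7.54 log2 CPM in DMSO-wash libraries (limma-trend adjusted p = 0.102).

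Annexins and S100 proteins, the calcium-binding families to which Anxa5 belongs, had the lowest median log2 fold change apart from the marker lists, -0.15 (-0.18 after the length and GC correction). Of 16 in the table (22 listed), 7 were lower at an unadjusted p under 0.05 and 0 higher, beside 3.64% and 3.39% of all genes. The same 7 were apart, beside 6.59% of all genes apart with lower values, and 2 lay above 0. Besides Anxa5 these were Anxa2, S100a4, S100a6, S100a9, S100a10 and S100a11. S100a9 had a low mean level, -0.46 log2 CPM in ruxo-wash and 1.38 log2 CPM in DMSO-wash libraries. The study's methods describe a filter that keeps a gene above a set CPM in at least 3 samples. If it was applied to these libraries, S100a9 passed only through the DMSO-wash group. Its place among the 7 is then set by the filter and is no support for a change. S100a6, or calcyclin, was 7.42, 7.27 and 7.43 log2 CPM in ruxo-wash libraries and 7.64, 7.69 and 7.62 log2 CPM in DMSO-wash libraries (log2 fold change -0.28; limma-trend adjusted p = 0.362). Anxa2 and its partner S100a10 lay at -0.27 and -0.23, each below all DMSO-wash libraries. Anxa6 overlapped between the groups, with a log2 fold change of -0.02. Myeloid genes, which include S100a9, moved beside this list: of 11 in the table (20 listed), 3 were lower at an unadjusted p under 0.05 and 1 higher, while their summed level was 788 to 791 CPM in ruxo-wash and 752 to 783 CPM in DMSO-wash libraries. The higher one was Prtn3 (proteinase 3), the most abundant of these genes, at 9.29, 9.28 and 9.28 log2 CPM in ruxo-wash libraries and 9.20, 9.19 and 9.15 log2 CPM in DMSO-wash libraries, and the lower ones were S100a9, Adgre1 and Spi1. The limit that the filter puts on S100a9 holds for this count of 3 as well. Adgre1, a macrophage marker, was at 1.62, 1.63 and 1.55 log2 CPM in ruxo-wash libraries and at 3.55, 2.28 and 2.27 log2 CPM in DMSO-wash libraries, a log2 fold change of -1.10 that was -0.67 without DMSO-wash replicate 1. Csf1r, Cd68, Lyz2 and Itgam are in the table and did not reach an unadjusted p under 0.05, and Cd14, Mpo and Elane are among the 9 absent from it. The part of such cells in the result was not tested.

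**Figure D4:**
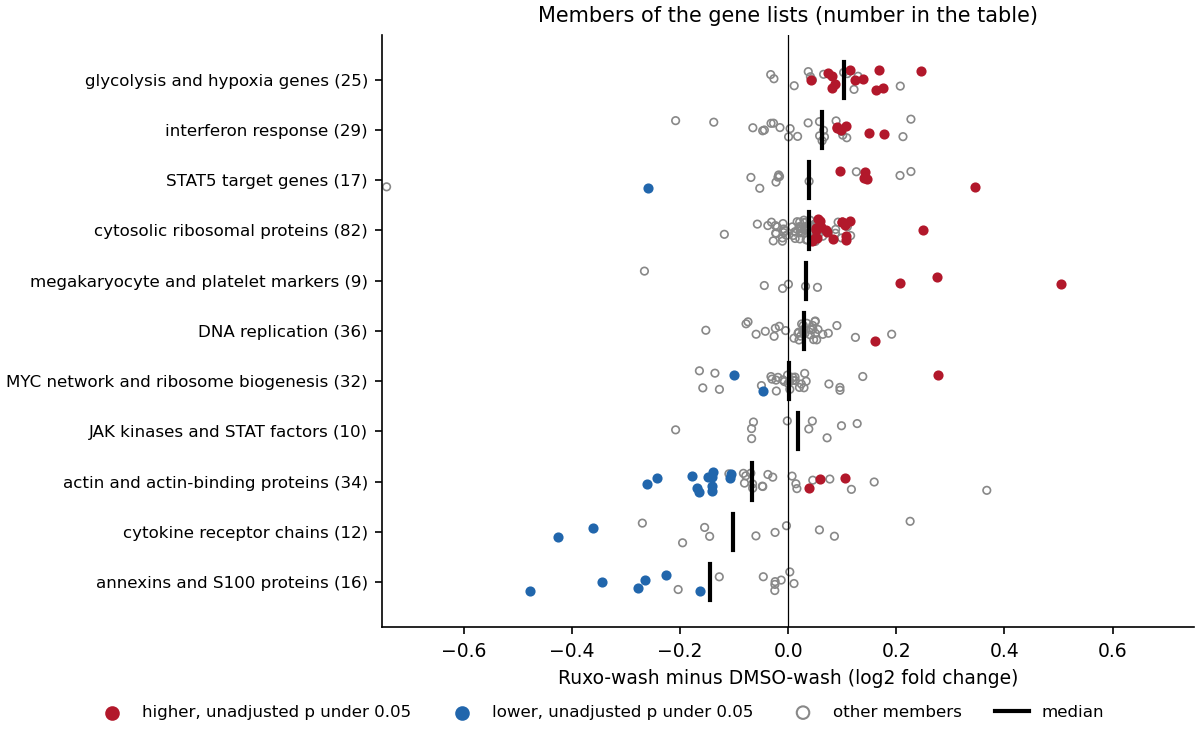
Log2 fold change of ruxo-wash over DMSO-wash cells for every member of 11 gene lists, with higher members at an unadjusted p under 0.05 in red, lower ones in blue, other members as open circles and the median as a black bar (2 members lie beyond the axis limit of 0.75). Glycolysis and hypoxia genes lie mostly to the right of 0, actin genes and annexins and S100 proteins mostly to the left, and JAK kinases and STAT factors on both sides.

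Among the receptor chains, the beta subunits of the interleukin-3 receptor had lower values in ruxo-wash cells. Csf2rb encodes the beta chain common to the interleukin-3, interleukin-5 and GM-CSF receptors, and Csf2rb2 the mouse beta chain used by interleukin-3 alone. Csf2rb2 was 5.29, 5.31 and 5.28 log2 CPM in ruxo-wash libraries and 5.68, 5.70 and 5.78 log2 CPM in DMSO-wash libraries (log2 fold change -0.43, 95% interval -0.55 to -0.30; limma-trend adjusted p = 0.108). Csf2rb was 7.37, 7.19 and 7.39 log2 CPM in ruxo-wash libraries and 7.70, 7.61 and 7.72 log2 CPM in DMSO-wash libraries (log2 fold change -0.36; limma-trend adjusted p = 0.325). Both were apart between the groups, but the transcripts are 95.1% identical over 3134 bases, so reads may be shared between the pair. The alpha chain gene Il3ra overlapped (log2 fold change -0.06). Of 12 receptor chains in the table (20 listed), these 2 were lower at an unadjusted p under 0.05 and 0 were higher, with a median of -0.10. The shares over all genes were 3.64% lower and 3.39% higher.

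Interferon response genes had a median log2 fold change of 0.06 over 29 in the table (32 listed). At an unadjusted p under 0.05, 6 were higher (Igtp, Bst2, Irgm1, Gbp2, Iigp1 and Irgm2) and 0 lower, and leaving out any single library gave 3 higher. All genes gave 3.39% higher and 3.64% lower at that p. Igtp, an immunity-related GTPase that acts on parasite vacuoles, was 7.74, 7.72 and 7.72 log2 CPM in ruxo-wash libraries and 7.61, 7.57 and 7.55 log2 CPM in DMSO-wash libraries (log2 fold change 0.15; limma-trend adjusted p = 0.374). The other GTPase genes had fold changes of 0.09 (Irgm1), 0.11 (Gbp2), 0.10 (Iigp1) and 0.18 (Irgm2) on the log2 scale, each apart between the groups. Igtp and Irgm2 share 162 exon bases on the same strand.

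Ribosomal protein genes depended on the scaling. Of 82 in the table, 18 were higher at an unadjusted p under 0.05 and 0 lower, beside 3.39% and 3.64% of all genes. Above 0 lay 66 members, and the median was 0.04. Quantile normalization instead gave 3 higher and 3 lower, 37 above 0 and a median of -0.01. Without DMSO-wash replicate 3 there were 11 higher members, and after the length and GC correction the median was 0.02. The transcripts of these genes are short, with a median of 1076 bases, and the fold changes moved with transcript length: over genes with a mean of at least 3 log2 CPM, the median was 0.03 in the shortest of 5 length classes and -0.02 in the longest. Rpl41 had the smallest p of the family, at 11.45 log2 CPM in all 3 ruxo-wash libraries and 11.35, 11.36 and 11.31 log2 CPM in DMSO-wash libraries.

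Erythroid and megakaryocyte genes were both detected. Of 27 heme synthesis and erythroid genes in the table (36 listed), 4 were higher and 2 lower at an unadjusted p under 0.05. The shares over all genes were 3.39% and 3.64%. The list had a median log2 fold change of 0.04. Its summed level was 6050 to 6110 CPM in ruxo-wash and 6430 to 6530 CPM in DMSO-wash libraries. The count of 4 higher members was 1 without DMSO-wash replicate 3, and 2 without DMSO-wash replicate 2, ruxo-wash replicate 1 or ruxo-wash replicate 2. Hba-a1 makes up much of that sum. Gfi1b, a repressor needed for red cell and platelet formation, was 6.02, 6.08 and 5.94 log2 CPM in ruxo-wash libraries and 6.27, 6.32 and 6.33 log2 CPM in DMSO-wash libraries (limma-trend adjusted p = 0.331). Nfe2, a factor of the same lineages, was apart in the other direction (log2 fold change 0.11), as was Alad, an enzyme of heme synthesis (0.15). Of 9 megakaryocyte and platelet genes, 3 were higher at an unadjusted p under 0.05 and 0 lower: Pf4 (platelet factor 4) was 6.76, 6.67 and 6.80 log2 CPM in ruxo-wash libraries and 6.48, 6.58 and 6.54 log2 CPM in DMSO-wash libraries, and the glycoprotein genes Gp9 and Gp5 had log2 fold changes of 0.28 and 0.50. The count of 3 was 1 without DMSO-wash replicate 3 or ruxo-wash replicate 1, and 2 to 3 without another library. Their summed level was 1150 to 1170 CPM in ruxo-wash and 1120 to 1160 CPM in DMSO-wash libraries.

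Growth and cell cycle lists had few members at an unadjusted p under 0.05, where all genes gave 3.39% higher and 3.64% lower. MYC network and ribosome biogenesis genes had a median log2 fold change of 0.0015 over 32 genes, with 1 higher (Mycn) and 2 lower at an unadjusted p under 0.05. DNA replication genes had a median of 0.03 over 36 genes (1 higher, 0 lower), and mitosis genes one of 0.02 over 30 genes (2 higher, 0 lower). The log2 fold change was above 0 for 27 of the 36 DNA replication genes (24 to 26 without single libraries), 21 of the 30 mitosis genes and 17 of the 32 MYC network genes, beside 6547 of 13085 over all genes. Of 16 p53 target genes in the table, 0 were higher and 0 lower in limma-trend at an unadjusted p under 0.05.

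Promoters were searched for the element that STAT5 and other STAT factors bind, because the genes above include both targets of JAK2 signalling and genes outside it. The windows were the 250 bases before each RefSeq start (GRCm38.p6), the motif was TTCNNNGAA, which reads the same on both strands, and the match of the actin gene is the CArG box, bound by serum response factor. Of all 32851 promoters 7.02% hold TTCNNNGAA, and so do 6.01% of the 11370 promoters of the genes analysed, against 8.16% of those of genes higher at an unadjusted p under 0.05 and 6.41% of those of lower genes. Of 27 promoters of interferon response genes 8 hold it (29.6%), of 16 promoters of STAT5 target genes 1 does (Socs3, 6.25%), and of 41 promoters of actin genes 0 do. The CArG box is in 1.47% of all promoters, in 1.13% of those of genes in the table and in 5 of the 41 actin promoters (12.2%). Pim1, Pim2, Cish and Spp1 hold no match in this window, which says only that these letters are absent from it. A match is a description of the sequence and not a measured binding site.

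The following windows are shown because they carry a match beside genes whose groups were apart, with the match in capitals. Serpina3g (chr12:104235897-104236146, plus strand) has it 33 to 25 bases before the start, Igtp (chr11:58199306-58199555, plus strand) 45 to 37 bases before, Csf2rb2 (chr15:78305722-78305971, minus strand) 15 to 7 bases before, and Actg1 (chr11:120348496-120348745, minus strand) the CArG box 90 to 81 bases before.
Serpina3g: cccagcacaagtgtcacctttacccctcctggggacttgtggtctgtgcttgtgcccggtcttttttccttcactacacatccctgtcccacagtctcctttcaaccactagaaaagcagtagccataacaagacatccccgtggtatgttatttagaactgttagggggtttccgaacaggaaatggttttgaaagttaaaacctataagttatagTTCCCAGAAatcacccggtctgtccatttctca
Igtp: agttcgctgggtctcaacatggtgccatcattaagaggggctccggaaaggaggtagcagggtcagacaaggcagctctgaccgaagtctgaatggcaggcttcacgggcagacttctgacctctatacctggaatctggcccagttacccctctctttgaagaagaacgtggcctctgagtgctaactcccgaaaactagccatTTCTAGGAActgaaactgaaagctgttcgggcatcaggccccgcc
Csf2rb2: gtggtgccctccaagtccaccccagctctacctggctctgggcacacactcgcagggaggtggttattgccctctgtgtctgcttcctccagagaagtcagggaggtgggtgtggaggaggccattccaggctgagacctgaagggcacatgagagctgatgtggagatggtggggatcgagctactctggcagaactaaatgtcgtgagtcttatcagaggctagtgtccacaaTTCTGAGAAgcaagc
Actg1: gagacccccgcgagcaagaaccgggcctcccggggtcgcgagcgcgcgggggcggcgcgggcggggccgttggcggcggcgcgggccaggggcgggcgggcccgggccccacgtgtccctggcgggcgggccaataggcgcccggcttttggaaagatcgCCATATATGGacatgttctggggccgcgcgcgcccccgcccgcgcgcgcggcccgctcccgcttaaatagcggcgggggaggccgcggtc
Serpina3g and Igtp, with a match to TTCNNNGAA, were higher in ruxo-wash cells, and Csf2rb2, with the same motif, was lower.

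The washout of CHZ868 was run in the same design, with 1 μM inhibitor for 1 h and 6 h without it. It was a separate experiment with its own 3 DMSO-wash libraries, so the washout effects share no library. Inhibitor and experiment therefore cannot be told apart in any difference between these effects. Over the 10078 genes in both tables, the effects differed past an adjusted p of 0.05 for 191 genes (1.9%) in limma-trend on the 12 washout libraries, 98 with the ruxolitinib effect more positive and 93 more negative. The tables were normalized separately and their levels differ with transcript length, so effects were compared and levels were not. The count moved from 5 to 628 when single libraries were left out: it was 5 without CHZ868-wash replicate 3, and 628 and 530 without replicates 2 and 3 of the DMSO-wash group of the CHZ868 experiment.

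Anxa5 had a log2 fold change of -0.48 after ruxolitinib washout and 0.12 after CHZ868 washout (difference -0.60, 95% interval -0.81 to -0.38; limma-trend adjusted p = 0.0225). Hba-a1 lay at -0.21 and 0.78 (difference -0.99, 95% interval -1.42 to -0.56; limma-trend adjusted p = 0.0371), Plek at -0.28 and 0.20 and S100a6 at -0.28 and 1.06. In these 4 genes the ruxolitinib effect was the more negative, and each difference passed the threshold. Gosr1 went the other way, at 0.44 and -0.12 (difference 0.56; limma-trend adjusted p = 0.0418). These genes were named for a small p in the ruxolitinib washout, whose libraries enter the differences, so their selection favours a difference.

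For the genes nearest to JAK2 signalling the washout effects did not differ past the threshold. The difference was 0.27 for Pim2 (95% interval -0.01 to 0.55; limma-trend adjusted p = 0.279), 0.13 for Id1 (-0.17 to 0.42; adjusted p = 0.663) and 0.17 for Tgm2 (-0.03 to 0.37; adjusted p = 0.343). Serpina3g had a log2 fold change of 0.17 after both washouts, with a difference whose interval ran from -0.18 to 0.17. Spp1 differed by -0.50, with an interval of -0.86 to -0.13 and a limma-trend adjusted p of 0.131, and Myc by 0.51, with an interval of 0.09 to 0.93 and a limma-trend adjusted p of 0.171. The intervals of Pim2, Id1 and Tgm2 include 0 and also differences larger than the ruxolitinib effects themselves. Side by side, glycolysis and hypoxia genes had medians of 0.11 after ruxolitinib and 0.07 after CHZ868 washout over the 24 shared genes, interferon response genes 0.06 and 0.17, actin genes -0.07 and -0.17, and annexins and S100 proteins -0.13 and 0.04.

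**Figure D5:**
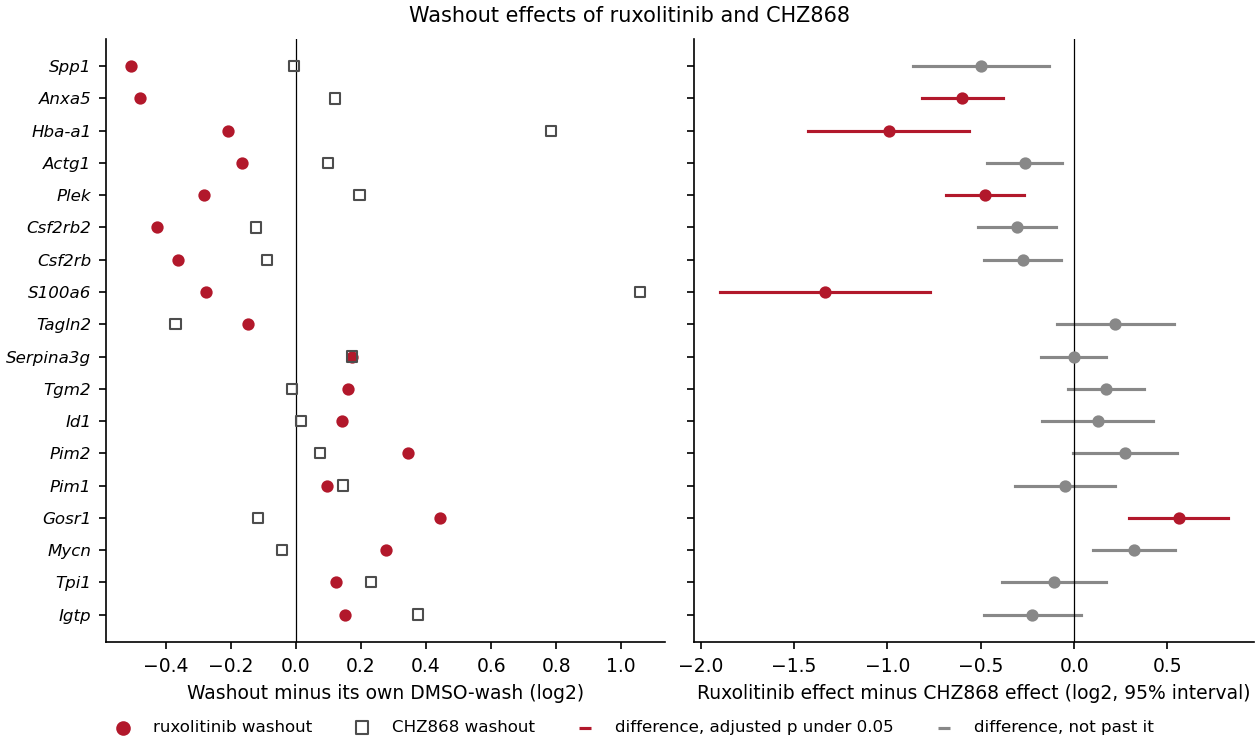
Left, the log2 fold change of each washout over its own DMSO-wash group for 18 genes, ruxolitinib as red circles and CHZ868 as open squares. Right, the ruxolitinib effect minus the CHZ868 effect with its 95% interval, in red where the adjusted p is under 0.05, which holds for Anxa5, Hba-a1, Plek, S100a6 and Gosr1 and not for Spp1, Id1, Pim2 or Serpina3g.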

How the data were processed

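RNA was sequenced from Ba/F3 JAK2-V617F cells, and 3 ruxo-wash and 3 DMSO-wash libraries were compared, with columns assigned to groups from their labels. The authors deposited log2 CPM values after a filter on low expression and TMM normalization. The study's methods name kallisto and GRCm38, whereas the submitters' processing notes name STAR 2.7.3a, edgeR 4.0.16 and GRCm39, and which of these made this table was not settled. The lowest deposited value, -3.455 log2 (0.0912 CPM), stands for genes at or near 0 reads.

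Values were fitted with limma-trend (limma 3.58.1, R 4.3.3) on the deposited log2 scale in place of voom, which needs counts, with Benjamini-Hochberg adjustment over 13085 genes and no replicate block. The difference between washouts was fitted on 12 libraries. Fits were tested on simulated data. Single values were tested by exact permutation (scipy 1.17.1). Gene positions came from GENCODE for GRCm38 (12916 symbols matched), near copies from blastn 2.17.0 (at least 90% identity over 200 bases), and promoters from RefSeq (8982 genes of the table matched). Replicates of equal number did not deviate together, so the numbers were not used to pair libraries.

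The members and gene lists were chosen with earlier results of these data known. Genes were named if past the adjusted threshold, among the 10 smallest p in each direction without overlap, named by the study for this washout or for JAK2 and STAT5, or among the 2 smallest p of a list; Adgre1, Csf1r, Spi1, Anxa2, Anxa6, Car9, Slc2a1, Slc2a3, Ldha, Pgk1, Hif1a, Gp5, Flna and other list members were added after their values were seen. The rule names 81 genes, of which 2 are not reported here, and those of the lists on which no result turns were left to the counts of their lists. Alternatives were the mean-variance trend, vooma, robust estimation, scaling, filters, pseudocounts, a replicate block, stricter thresholds and each library left out. Protein-coding genes alone and a correction for transcript length and GC were added after seeing the data.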

Additional observations from a re-analysis of the deposited data

Results flagged for a closer look

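The difference between the ruxolitinib washout effect and the CHZ868 washout effect, on the log2 scale, passed an adjusted p of 0.05 (limma-trend on 12 libraries, 10078 genes) for 8 of the genes named by the rule. The rule names 81 genes, and over all 10078 genes the share past that threshold was 1.9%. Most named genes were picked by a small p in the ruxolitinib washout, and the same libraries enter this difference. The selection thus favours a difference, and the 8 are not independent evidence that the washouts diverge. The washout effects were of opposite sign in each of the 8.

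The ruxolitinib effect was the more negative for Anxa5 (-0.60; adjusted p = 0.0225), Hba-a1 (-0.99; adjusted p = 0.0371), Plek (-0.48; adjusted p = 0.0371), S100a6 (-1.33; adjusted p = 0.0329) and the predicted gene Gm47916 (-0.57; adjusted p = 0.0225), all in limma-trend. It was the more positive for Gosr1 (0.56; adjusted p = 0.0418), Rela (0.59; adjusted p = 0.0371) and Cebpb (1.54; adjusted p = 0.00202). Cebpb, a bZIP transcription factor, had a log2 fold change of 0.11 after ruxolitinib washout and -1.42 after CHZ868 washout, and Rela, the p65 subunit of NF-kB, had 0.09 and -0.49, so in both genes most of the difference lay in the CHZ868 experiment. S100a6 likewise had -0.28 and 1.06.

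Every one of these differences kept its direction in 19 of 19 alternatives. Cebpb passed the threshold in 19 of them, Anxa5 and Gm47916 in 10, S100a6 in 8, and Hba-a1, Plek, Gosr1 and Rela in 7.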

How the results depend on the processing

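The number of calls moved with the processing, while the direction of the 3 called genes did not. The count of genes past an adjusted p of 0.05 was 3, and it was 9 without the mean-variance trend (2 higher, and none of the 3 genes), 5 with robust estimation, 0 with the replicate block, 0 with a log2 fold change of at least 0.58, 0 at an adjusted p under 0.01, 6 at an adjusted p under 0.10, and 0 to 1 without single libraries. The counts at an unadjusted p under 0.05, 444 higher and 476 lower, became 351 and 484 without the trend, 381 and 506 with quantile normalization, 503 and 425 when centred on the median, 360 and 353 at a mean log2 CPM of at least 3, and 414 and 429 with the block, so which direction holds more genes depended on the setting. Same-numbered libraries did not deviate together (r = -0.037, -0.048 and -0.0094), and no library correlated best with its own number, so the block stands for a shared number. Genes whose groups do not overlap numbered 2955 to 3049 without single libraries, since fewer libraries overlap less. The count for the difference between washouts was 14 without the trend, 6 with the replicate block and 5 to 628 without single libraries.

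Spp1 (-0.50), Anxa5 (-0.48) and Hba-a1 (-0.21) lost the call without the trend and with the block at the same fold change, and Hba-a1 also when centred on the median (-0.20), with quantile normalization (-0.27) and with the length and GC correction (-0.24). Without single libraries they ranged from -0.53 to -0.49, -0.49 to -0.46 and -0.22 to -0.20. Each was lower in 18 of 18 alternatives, and passed the threshold in 11, 10 and 7 of them; the cause was not tested.

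Among lists, ribosomal proteins moved to -0.0063 with quantile normalization, and with protein-coding genes alone nuclear-retained and snoRNA host RNAs moved to -0.035 and B lineage markers to -0.10, where fewer genes remain. Without single libraries the medians ran from -0.056 to -0.016 (p53 targets), 0.015 to 0.053 (Id proteins), -0.073 to -0.00082 (osteopontin and receptors), -0.018 to 0.037 (snoRNA hosts) and -0.20 to -0.063 (myeloid markers). Some genes short of any threshold changed sign without single libraries: Lck ran from -0.015 to 0.68, Stat5a from -0.031 to 0.076, Socs2 from -0.041 to 0.11, Osm from -0.047 to 0.016 and Stat5b from -0.015 to 0.022, and Stat5b was at 0.0071 when centred and 0.0099 with the length and GC correction. Depth is unknown, and with 3 libraries a group the median standard error of 0.09 limits what can be seen.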

Other observations

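A few genes were at the lowest value of the table throughout one group. There were 14 at that value in all ruxo-wash libraries and above it in all DMSO-wash libraries, and 4 the other way, among 13085 genes. The study's methods describe a filter that keeps a gene expressed in at least 3 samples. If it was applied to these 6 libraries, such genes entered only through the group where they are higher. The contrast is then set by the filter and is no support for a change. P3h2, a collagen prolyl hydroxylase, is among the 14, and most of the others are small RNAs and predicted genes such as n-R5s200, Snord87 and Mir6924. No fold change is given for them.

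Lysosome and autophagy genes had a median log2 fold change of 0.0081 over 30 genes. At an unadjusted p under 0.05 in limma-trend 3 were lower and 0 higher, beside 3.64% and 3.39% of all genes. Chaperones and unfolded protein response genes had a median of 0.03 over 23 genes, but of -0.0088 with quantile normalization. Mitochondrially encoded genes had a median of -0.04 over 15 genes, and cholesterol and fatty acid synthesis genes one of -0.02 over 28 genes. TNF and NF-kB response genes had a median of -0.05 over 18 genes, with 0 members at an unadjusted p under 0.05 in limma-trend.

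Over genes with a mean of at least 3 log2 CPM, those in the shortest of 5 transcript length classes were higher at an unadjusted p under 0.05 in 129 cases and lower in 74, and those in the longest class in 25 and 84. The level of a gene in the DMSO-wash libraries of this table, less its level in those of the CHZ868 table, fell by 0.85 log2 units for each doubling of transcript length (Pearson r = -0.579 across 10010 genes, which are not independent replicates).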
